A study of Mus musculus with 15 samples.

Results

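Interferon beta was given to fibroblasts cultured from mouse embryos (MEFs) and labelled wild type (WT), either for the first time or again after an earlier exposure. For each gene, the change over 2 h in cells that had met interferon before was set against the change over 2 h in cells that had not. The study also holds MEFs labelled knockout (KO) for NSD2, a histone methyltransferase for lysine 36 of H3 whose counts appear under the gene symbol Whsc1. The comparison took the 8 WT libraries of 15 in all, 2 in each of 4 groups, all labelled strain c57bl/6 and Nsd2(+/+) and grown in the same medium with donor bovine serum. Pretreated cells had received interferon beta for 3 h, had been washed and had spent 24 h without it. They were sampled after a further 2 h with interferon beta (pretreated 2 h) and without this second exposure (pretreated 0 h). Naive cells were sampled after their first 2 h with interferon beta (naive 2 h) and without any (naive 0 h). The 2 h treatment used mouse recombinant interferon beta at 100 units per ml. The labels name no group held for 2 h without interferon beta. Effects of time and handling therefore cannot be told apart from those of interferon in any change over 2 h. Whether naive cells were washed or kept in culture alongside is not given in the sources used here, and nothing in the labels says that replicates came from separate cultures or animals. The p-values therefore cover the spread between these libraries alone, which may be technical.

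Type I interferons bind the IFNAR receptor, whose kinases Jak1 and Tyk2 phosphorylate transcription factors of the STAT family such as Stat2. With Irf9 these form the complex ISGF3, which enters the nucleus and binds the interferon-stimulated response element (ISRE) in the promoters of antiviral genes. After interferon is removed some of these genes stay more active than before, and some respond faster or more strongly to a second exposure, a property called interferon memory. A gene can reach a higher level at the second exposure because it starts higher, because its fold response is larger, or through both, and the interaction described here holds the fold response alone. The second response is the log2 change of pretreated 2 h over pretreated 0 h, the first response is the log2 change of naive 2 h over naive 0 h, and the interaction is the second response minus the first. A positive interaction therefore means a higher log2 change in pretreated cells, and it covers genes that fell less as well as genes that were induced more.

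The 250 bases before the start of 5 genes are shown because these genes are examples of the patterns of response found. They were not picked to stand for the motifs of their groups. Cxcl10, Gbp2 and Ifit1 had higher log2 changes in pretreated cells. Bst2 started higher in pretreated cells with nearly equal log2 changes, and Sema7a had a lower log2 change in pretreated cells. The sequences were taken from RefSeq on GRCm38.p6 and are written 5′ to 3′ on the strand of the gene. They lie at chr5:92348890-92349139 on the minus strand for Cxcl10, chr3:142620413-142620662 on the plus strand for Gbp2, chr19:34640639-34640888 on the plus strand for Ifit1, chr8:71537473-71537722 on the minus strand for Bst2 and chr9:57939862-57940111 on the plus strand for Sema7a. Capitals mark matches to the ISRE, searched on both strands as GAAA, any 2 bases and GAAA.
Cxcl10: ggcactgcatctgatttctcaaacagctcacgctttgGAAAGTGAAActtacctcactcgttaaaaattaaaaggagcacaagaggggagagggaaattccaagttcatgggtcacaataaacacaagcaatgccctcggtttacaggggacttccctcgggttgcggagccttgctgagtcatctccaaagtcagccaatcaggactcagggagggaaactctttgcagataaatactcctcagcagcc
Gbp2: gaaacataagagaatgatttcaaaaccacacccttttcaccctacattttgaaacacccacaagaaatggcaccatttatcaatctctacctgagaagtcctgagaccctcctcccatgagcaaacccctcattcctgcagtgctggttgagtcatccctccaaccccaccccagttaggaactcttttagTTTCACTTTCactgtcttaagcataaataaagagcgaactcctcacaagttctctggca
Ifit1: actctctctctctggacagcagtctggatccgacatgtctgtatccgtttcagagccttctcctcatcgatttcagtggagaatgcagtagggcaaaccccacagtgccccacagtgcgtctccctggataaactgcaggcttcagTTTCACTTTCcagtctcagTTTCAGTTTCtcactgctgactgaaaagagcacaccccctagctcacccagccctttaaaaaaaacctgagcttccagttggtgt
Bst2: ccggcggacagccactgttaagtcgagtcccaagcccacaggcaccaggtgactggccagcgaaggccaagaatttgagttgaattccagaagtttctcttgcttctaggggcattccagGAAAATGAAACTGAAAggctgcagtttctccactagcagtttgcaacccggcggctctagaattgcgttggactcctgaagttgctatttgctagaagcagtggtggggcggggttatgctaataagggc
Sema7a: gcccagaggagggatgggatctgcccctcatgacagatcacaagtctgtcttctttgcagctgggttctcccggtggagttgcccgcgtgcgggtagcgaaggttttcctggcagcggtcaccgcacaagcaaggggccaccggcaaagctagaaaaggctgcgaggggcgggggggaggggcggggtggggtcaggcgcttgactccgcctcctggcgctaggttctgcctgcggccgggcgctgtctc
Cxcl10 and Gbp2 held 1 match each and Ifit1 held 2. The 2 matches of Bst2 overlapped, and Sema7a held none. The Cxcl10 window also held 1 kappa B match (GGGA, TT and CC with any 1 base between them) and 1 AP-1 match (TGANTCA), both searched on both strands. Gbp2 held 1 AP-1 match too, and Bst2 held 1 match to the gamma-activated sequence (TTC, any 3 bases and GAA). In the whole RefSeq table these motifs stand in the windows of 1.13% (kappa B), 7.82% (AP-1) and 8.13% (gamma-activated sequence) of genes. A match describes the letters in this window and is not a measured binding site.

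Each WT library held between 17170845 and 41600059 counts (median 27257113), and values are given as counts scaled to library size (CPM). Between 10.6% and 29.4% of the counts fell on the ribosomal transcript Rn45s and on Lars2, with WT naive 0 h replicate 1 at 10.6% and WT pretreated 2 h replicate 1 at 18.5%. The targeted gene of the KO cells, Whsc1, had 108.5 to 146.2 CPM in the WT libraries and an interaction of -0.0073 ± 0.066 (95% interval -0.14 to 0.13). KO libraries had counts for Whsc1 too, which a deletion of only some exons could leave in place, so the genotypes are taken from the labels. All 12 fibroblast markers were detected, though Thy1 reached only 0.17 CPM. They summed to 13370 to 14290 CPM at 2 h and 13950 to 14010 CPM at 0 h in pretreated libraries. The naive sums were higher, at 16410 to 16890 CPM at 2 h and 16320 to 16850 CPM at 0 h. Col1a1, Col1a2 and Col3a1 were lower in pretreated libraries of the same time. Vim was higher there, with 4861 to 5807 CPM in pretreated and 4319 to 4968 CPM in naive libraries. The part of the difference between these sums in the results was not tested. Of 15 macrophage and blood markers, 7 were at 0 in all WT libraries, and the list summed to 13.5 to 20.6 CPM, most of it Cd14. Cartilage and bone markers summed to 60.6 to 70.8 CPM in pretreated cells at 2 h and 43.5 to 44.1 CPM at 0 h, and to 73.9 to 76.2 CPM in naive cells at 2 h and 37.2 to 37.9 CPM at 0 h. In bulk RNA, a change in cell makeup and a change in RNA per cell cannot be told apart.

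The positive interactions were led by interferon-induced genes such as Cxcl10, Gbp2, Rsad2 and Ifit1, and 11 of the 15 largest named ones belong to the 6 lists of interferon and cytokine genes described next. The negative interactions included early response genes such as Dusp4, Dusp6, Maff and Sgk1. Of the 15 largest negative ones named, however, 13 belong to none of the gene lists, Maff and Sgk1 among them. Of 13802 genes tested with edgeR, 420 (3.04%) had an interaction at an adjusted p below 0.05. Positive interactions were called for 225 genes (1.63% of those tested) and negative ones for 195 (1.41%). The interaction was at least 2-fold for 61 of the genes with a positive call and 8 of those with a negative call. Over all genes tested the median interaction was 0.0026 on the log2 scale. Without WT naive 0 h replicate 1, the library with the lowest share of Rn45s and Lars2, the counts were 139 positive and 117 negative. The negative count was 101 when WT naive 2 h replicate 1 was left out. In the lists of antiviral effectors, GTPases, MHC class I presentation, sensors, ER stress genes and cell cycle genes, edgeR and DESeq2 gave no negative call, beside 0, 0, 1, 1, 1 and 0 negative members at an unadjusted p below 0.05 in edgeR. In the lists of immediate early and cholesterol genes there was no positive call with either tool, and 0 members of each were positive at an unadjusted p below 0.05.

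The 225 genes with a positive call differed from the 195 with a negative call in where the difference arose. For the positive ones, the median pretreated over naive difference was -0.036 at 0 h and 0.59 at 2 h on the log2 scale, so their starting levels were close on median. Their median second response was 0.64 and their median first response 0.11. For the negative ones, the same difference had a median of 0.22 at 0 h and -0.24 at 2 h, with a median second response of 0.36 and a first response of 0.78. These medians describe genes chosen on the same values and carry no test. Over all genes tested, the second response was called above 0 for 12.2% and below 0 for 10.5%, and the first response was called above 0 for 15% and below 0 for 15.6%. The level at 2 h was called higher in pretreated cells for 13.2% and lower for 11.8%.

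Fitted responses were above 0 in both states for 128 of the genes with a positive call. They were above 0 in pretreated cells alone for 55, and below 0 in both states for 42, which thus fell less in pretreated cells. Of the genes with a negative call, 152 had responses above 0 in both states, 40 in naive cells alone and 3 below 0 in both. The change in CPM from 0 h to 2 h was higher in pretreated cells for all 225 positive genes, where those that fell lost less. Among the 195 negative genes, it was lower in pretreated cells for 191 and higher for 4. These genes were chosen on the interaction in the same libraries, so these counts describe them on another scale and carry no test.

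**Figure D1:**
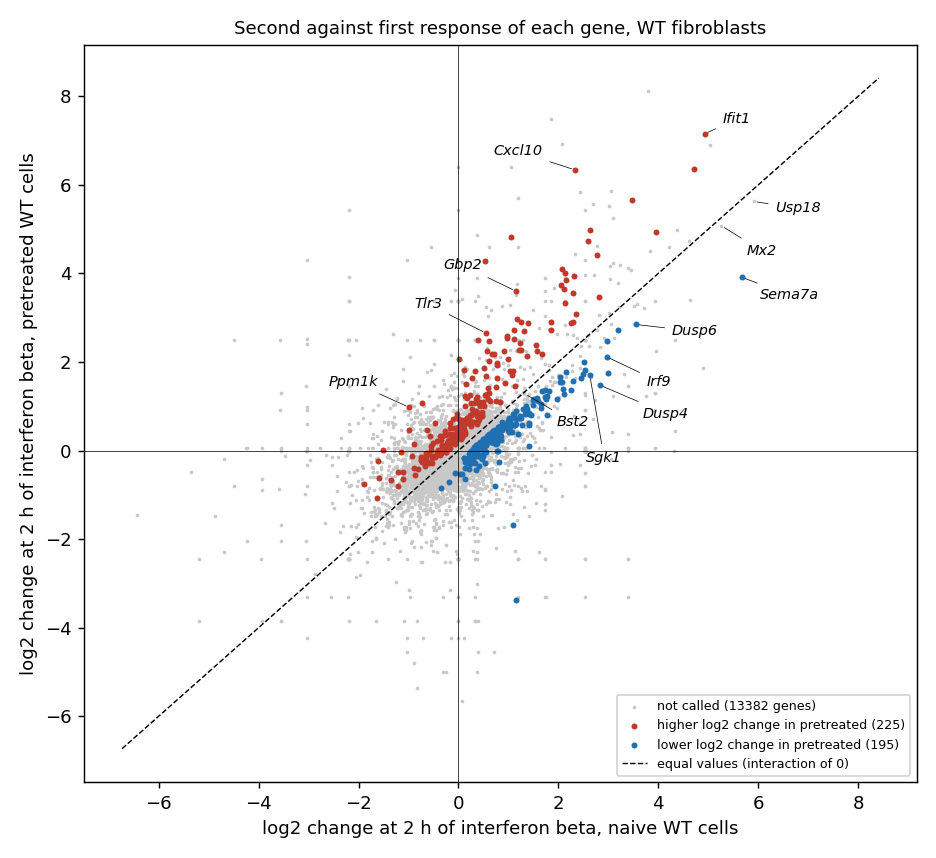
Second response of each gene in pretreated WT cells (vertical axis, log2 change at 2 h) against its first response in naive WT cells (horizontal axis, log2 change at 2 h), with 225 genes of positive interaction in red, 195 of negative interaction in blue, the other genes tested in grey and the line of equal responses dashed. Cxcl10, Gbp2 and Tlr3 lie far above the line, Usp18, Mx2 and Bst2 close to it, and Sema7a and Dusp4 below it.

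Among transcription factors of the interferon pathway, Stat2, Irf1, Irf2 and Irf5 had higher log2 changes in pretreated cells and Irf9 a lower one. Of the 26 signalling genes tested of 27, 5 had positive calls and Irf9 alone a negative one, and the list's median interaction was -0.0011, close to that over all genes. Irf1 had 106 and 104 CPM in pretreated cells at 2 h and 26 and 26.9 CPM in pretreated cells at 0 h, against 49.8 and 47.6 CPM in naive cells at 2 h and 29 and 27.4 CPM in naive cells at 0 h. Irf1, a transcription factor induced by interferons that acts on many of their targets, was slightly lower in both pretreated libraries at 0 h, a difference that did not pass the test (edgeR adjusted p = 0.27), and higher in both at 2 h. Its interaction was 1.21 ± 0.083 (edgeR adjusted p = 2.8e-11). Stat2, a subunit of ISGF3, had an interaction of 0.62 ± 0.11 (edgeR adjusted p = 3.9e-04), and without WT naive 0 h replicate 1 it was 0.50 with an adjusted p of 0.086. Irf5, a transcription factor acting downstream of Toll-like receptors, had an interaction of 0.71 ± 0.11 (edgeR adjusted p = 4.7e-05). Irf2 was close to the threshold, at 0.68 ± 0.19 (edgeR adjusted p = 0.045). Without WT naive 0 h replicate 1 the list held 3 positive calls in place of 5.

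Irf9, the DNA-binding subunit of ISGF3, went the other way from Stat2 on the log2 scale. Pretreated cells held 60.4 and 65.8 CPM of Irf9 at 2 h and 13.4 and 15.7 CPM at 0 h, and naive cells held 41.8 and 39.9 CPM at 2 h and 5.03 and 5.73 CPM at 0 h. Every pretreated library was above every naive library of the same time. The starting difference was 1.47 ± 0.10 (edgeR adjusted p = 1.5e-11) and the difference at 2 h was 0.62 ± 0.065 (edgeR adjusted p = 1.1e-08), which left an interaction of -0.85 ± 0.12 (edgeR adjusted p = 3.1e-05). On the linear scale the order turned, since Irf9 gained 48.6 CPM in pretreated cells and 35.5 CPM in naive cells.

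The list of nucleic acid sensors had 9 positive calls among 19 tested of 20, with a median interaction of 0.76. It also holds genes that are not themselves sensors of nucleic acid, among them Myd88, Casp4 and Mlkl. Tlr3 had 45.9 and 48.6 CPM in pretreated cells at 2 h and 7.86 and 7.17 CPM in pretreated cells at 0 h, against 13.8 and 12.7 CPM in naive cells at 2 h and 9.21 and 8.74 CPM in naive cells at 0 h. Tlr3, the endosomal receptor for double-stranded RNA, started lower in pretreated cells, by -0.27 ± 0.095 (edgeR adjusted p = 0.038), and the pretreated libraries stood apart above the naive ones at 2 h. It was induced 6.28-fold in pretreated cells and 1.47-fold in naive cells, an interaction of 2.09 ± 0.12 (edgeR adjusted p = 5.2e-13). At 2 h Ifih1 had 17.7 and 20.1 CPM in pretreated libraries and 3.95 and 3.03 CPM in naive libraries, and at 0 h it had 1.35 and 1.48 CPM in pretreated libraries and 0.789 and 1.04 CPM in naive libraries. Ifih1 encodes MDA5, a cytosolic sensor of long double-stranded RNA, and its interaction was 1.67 ± 0.29 (edgeR adjusted p = 4.6e-04). Myd88, the adaptor of most Toll-like receptors, had an interaction of 0.85 ± 0.10 (edgeR adjusted p = 1.5e-06). Ifi204, a DNA-sensing member of a family with near-identical copies whose shared reads the counting could leave out, had 0.76 ± 0.11 (edgeR adjusted p = 5.4e-05). The other positive calls were Ddx58, which encodes the RNA sensor RIG-I, Casp4, Ifi205, Mnda and Mlkl, with interactions from 0.41 to 1.70. The count ranged from 6 to 9 when single WT libraries were left out.

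Antiviral effectors gave the longest list of positive interactions. Of 63 genes, all tested, 32 had positive calls, from 0.28 for Shisa5 to 2.36 for Rsad2. The median interaction of the list was 0.81, with a median starting difference of 0.39 and a median difference at 2 h of 1.64. With single WT libraries left out, the count was 25 to 32.

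Ifit1 had 252 and 335 CPM in pretreated cells at 2 h and 2.11 and 2 CPM in pretreated cells at 0 h, against 46.2 and 41.9 CPM in naive cells at 2 h and 1.16 and 2.26 CPM in naive cells at 0 h. Ifit1, which binds viral RNA whose cap lacks host methylation, overlapped between states at 0 h, and at 2 h both pretreated libraries were far above the naive ones. Its interaction was 2.23 ± 0.35 (edgeR adjusted p = 9.2e-05), from a 142-fold induction in pretreated cells and a 30.4-fold induction in naive cells. Pretreated cells held 80.1 and 98.3 CPM of Ifit2 at 2 h and 29.2 and 28.1 CPM at 0 h, and naive cells held 30.6 and 28 CPM at 2 h and 24.2 and 24.5 CPM at 0 h. The neighbouring family member Ifit2 thus rose 3.1-fold in pretreated cells and 1.21-fold in naive cells. Its interaction was 1.36 ± 0.11 (edgeR adjusted p = 3.6e-10).

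At 2 h Tor3a had 89.8 and 91.7 CPM in pretreated libraries and 37.6 and 36.1 CPM in naive libraries, and at 0 h it had 13.9 and 13.6 CPM in pretreated libraries and 17.2 and 16.8 CPM in naive libraries. Tor3a, an interferon-responsive member of the torsin ATPase family, started slightly lower in pretreated cells and ended higher, and its interaction was 1.60 ± 0.093 (edgeR adjusted p = 5.9e-13). Parp10, a mono-ADP-ribosyltransferase, had an interaction of 1.57 ± 0.11 (edgeR adjusted p = 2.1e-11). Dtx3l, an E3 ubiquitin ligase that pairs with Parp9, had 1.48 ± 0.10 (edgeR adjusted p = 3.4e-11), and Parp9 itself and Parp14 also had positive calls of 1.02 and 1.27.

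Some antiviral calls rested on few counts at 0 h. Pretreated cells held 11.9 and 15.3 CPM of Rsad2 at 2 h and 0.473 and 0.37 CPM at 0 h, and naive cells held 1.52 and 1.64 CPM at 2 h and 0.197 and 0.405 CPM at 0 h. Rsad2 encodes viperin, which makes a nucleotide analogue that stops viral RNA synthesis, and its 0 h values rested on 23 counts in pretreated and 17 in naive libraries. Its interaction was 2.36 ± 0.54 (edgeR adjusted p = 0.0088), or 2.02 with an edgeR adjusted p of 0.12 without WT naive 0 h replicate 2. Rtp4, an interferon-induced receptor transporter protein, had 1.88 ± 0.31 (edgeR adjusted p = 2.2e-04), against 1.53 with an adjusted p of 0.21 without WT naive 0 h replicate 1. Ifit3, which has a near-identical copy, had 1.66 ± 0.43 (edgeR adjusted p = 0.027) and lost its call in 3 of the 8 fits that left out 1 WT library, those without either WT naive 0 h replicate or without WT pretreated 0 h replicate 1, with adjusted p up to 0.17.

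Interferon-inducible GTPases, which attack the compartments where intracellular bacteria and parasites live, had the highest median interaction of the 15 pathway lists, at 2.03. Of 15 tested of 18, 7 had positive calls. The list's median starting difference was 0 on the log2 scale. It is not read as equal starting levels, since genes without WT counts could pass the filter through KO libraries. The same members enter the median interaction, so its rank among the lists carries the same limit. Gbp2 had 38 and 45.4 CPM in pretreated cells at 2 h and 2.91 and 3.92 CPM in pretreated cells at 0 h, against 10.8 and 9.28 CPM in naive cells at 2 h and 4.48 and 4.86 CPM in naive cells at 0 h. Gbp2, a guanylate-binding protein, was lower at 0 h in both pretreated libraries, just short of the threshold (edgeR adjusted p = 0.052), and at 2 h the pretreated level was 4.09 times the naive one. Its interaction was 2.46 ± 0.18 (edgeR adjusted p = 1.4e-10). At 2 h Irgm1 had 427 and 474 CPM in pretreated libraries and 208 and 204 CPM in naive libraries, and at 0 h it had 59.7 and 62.6 CPM in pretreated libraries and 42.3 and 45 CPM in naive libraries. Irgm1, a regulator of the other immunity-related GTPases, was higher in pretreated cells at both times, by 0.50 ± 0.062 (edgeR adjusted p = 5.9e-07) at 0 h, and still had an interaction of 0.63 ± 0.081 (edgeR adjusted p = 4.4e-06).

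The remaining GTPase calls depended more on single libraries. Pretreated cells held 24.7 and 31.6 CPM of Iigp1 at 2 h and 0.619 and 0.481 CPM at 0 h, and naive cells held 5.27 and 4.86 CPM at 2 h and 0.355 and 0.752 CPM at 0 h. Iigp1, a GTPase that loads onto the vacuoles of parasites, had an interaction of 2.19 ± 0.46 (edgeR adjusted p = 0.0039), or 1.83 with an edgeR adjusted p of 0.071 without WT naive 0 h replicate 2. Gbp7 had 2.13 ± 0.36 (edgeR adjusted p = 3.3e-04) and Ifi47, another immunity-related GTPase, 2.03 ± 0.38 (adjusted p = 0.0012). Without WT naive 0 h replicate 1 these were 2.10 (adjusted p = 0.086) and 2.05 (adjusted p = 0.081). Gbp3, called at 1.18, and Igtp were the other positive calls. The list held 4 positive calls without either WT naive 0 h replicate, and the GBP genes have near-identical copies whose shared reads could be left out or split.

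MHC class I presentation had 8 positive calls among 20 tested of 22 and a median interaction of 0.36. Tap1 had 47.3 and 49 CPM in pretreated cells at 2 h and 12.6 and 13.9 CPM in pretreated cells at 0 h, against 21.5 and 21.5 CPM in naive cells at 2 h and 15.5 and 14.2 CPM in naive cells at 0 h. Tap1, a subunit of the transporter that moves peptides into the endoplasmic reticulum, had starting levels that did not pass the test of a difference (edgeR adjusted p = 0.078) and separate levels at 2 h. Its interaction was 1.35 ± 0.1 (edgeR adjusted p = 1.2e-10), and that of its partner Tap2 was 1.01. At 2 h Nlrc5 had 3.45 and 3.58 CPM in pretreated libraries and 1.03 and 1.19 CPM in naive libraries, and at 0 h it had 0.692 and 0.555 CPM in pretreated libraries and 0.71 and 0.752 CPM in naive libraries. Nlrc5, the transactivator of MHC class I genes, rose 5.6-fold in pretreated cells, while in naive cells its 1.52-fold change did not pass the test (edgeR adjusted p = 0.088), and its interaction was 1.88 ± 0.33 (edgeR adjusted p = 4.7e-04). Tapbp, which holds class I molecules at the transporter, had an interaction of 0.58 ± 0.072 (edgeR adjusted p = 2.8e-06), and the immunoproteasome subunit Psmb10 had 0.82 ± 0.11 (edgeR adjusted p = 1.1e-05). Psme1, H2-D1 and Tapbpl had positive calls from 0.37 to 0.70, of which H2-D1 shares reads with other class I genes. With single WT libraries left out the count was 6 to 8.

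Chemokines, cytokines and NF-kB targets did not move as one list, with 4 positive and 2 negative calls among 23 tested of 28 and a median interaction of 0.018. The largest positive interaction of the genes named by size was in this list. Cxcl10 had 34.3 and 37.8 CPM in pretreated cells at 2 h and 0.364 and 0.518 CPM in pretreated cells at 0 h, against 3.07 and 2.68 CPM in naive cells at 2 h and 0.434 and 0.984 CPM in naive cells at 0 h. Cxcl10, the chemokine that draws activated T cells through Cxcr3, had overlapping levels at 0 h, on 24 counts in pretreated and 39 in naive libraries, and at 2 h the pretreated level was 12.3 times the naive one. Induction was 81-fold in pretreated cells and 5.04-fold in naive cells, an interaction of 4.01 ± 0.43 (edgeR adjusted p = 2.0e-07), and it kept its call without any one WT library, at 3.60 to 4.78.

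Pretreated cells held 4.19 and 5.06 CPM of Il15 at 2 h and 1.82 and 2.51 CPM at 0 h, and naive cells held 1.39 and 1.19 CPM at 2 h and 2.23 and 2.08 CPM at 0 h. Il15, a cytokine that sustains natural killer and memory T cells, rose 2.12-fold in pretreated cells and fell to 0.6 of its starting level in naive cells (edgeR adjusted p = 0.016). Its interaction was 1.82 ± 0.30 (edgeR adjusted p = 1.6e-04). Cd274, which encodes the T cell inhibitory ligand PD-L1, had an interaction of 1.63 ± 0.25 (edgeR adjusted p = 8.7e-05), or 1.57 with an adjusted p of 0.050 without WT naive 0 h replicate 1, which is just past the threshold. The neutrophil chemokine Cxcl1 had a positive call of 0.98. Ptgs2, the inducible enzyme of prostaglandin synthesis, had a negative interaction of -0.50 ± 0.065 (edgeR adjusted p = 4.7e-06), and so did the chemokine Cx3cl1, at -0.59. Without WT naive 0 h replicate 1 the list held 2 positive calls in place of 4.

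**Figure D2:**
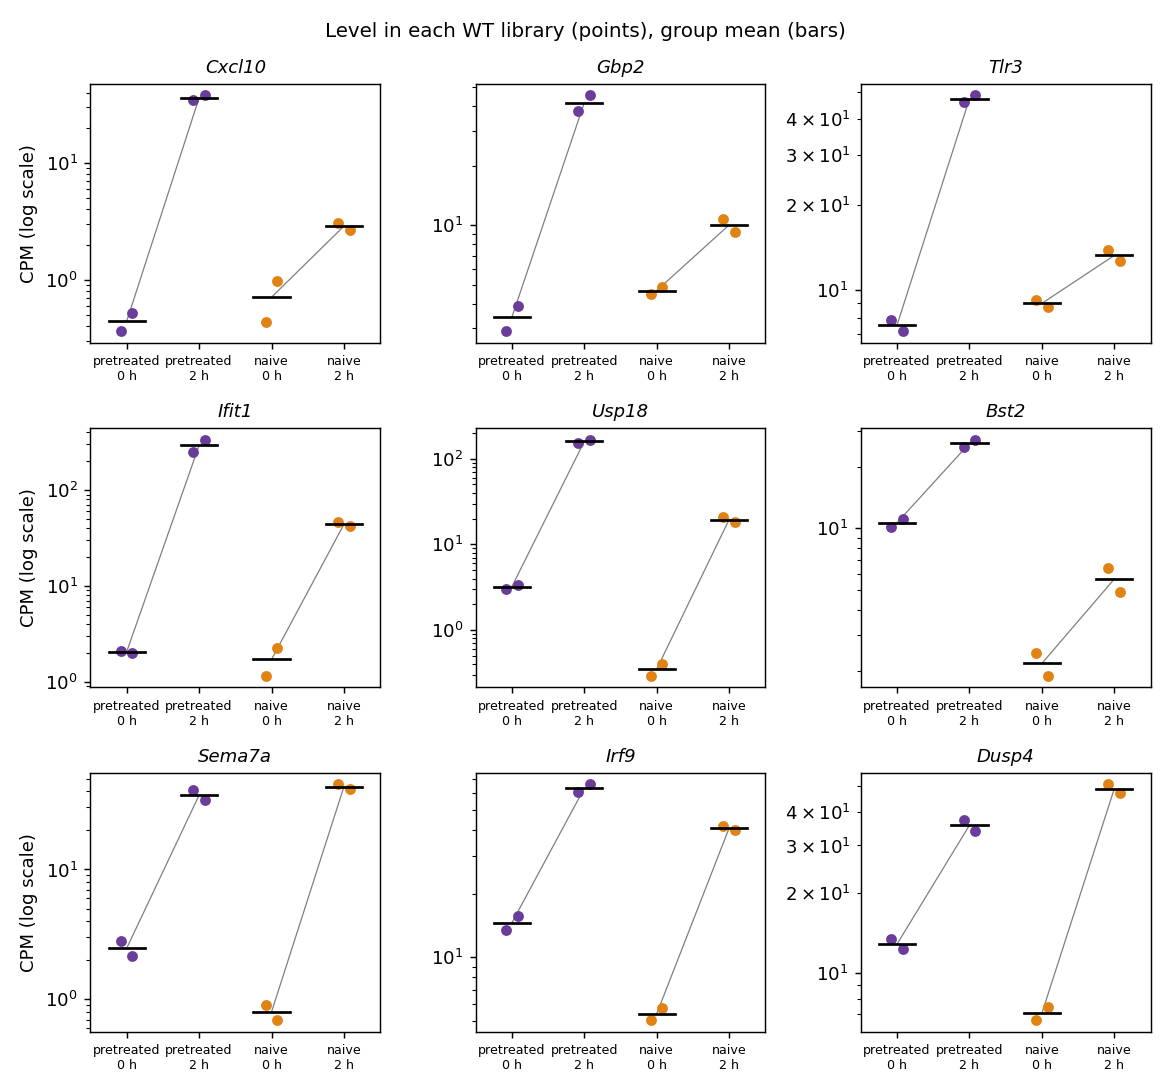
Level of 9 genes in each WT library (points, CPM on a log axis) with the group mean (bars), pretreated cells in purple at left and naive cells in orange at right, each at 0 h and 2 h. Cxcl10, Gbp2, Tlr3 and Ifit1 end farther apart than they start, Usp18 and Bst2 keep their distance at both times, and Sema7a, Irf9 and Dusp4 start apart and end closer together or in the reverse order.

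Other interferon genes reached higher levels at the second exposure without a called difference in fold. Usp18 had 152 and 166 CPM in pretreated cells at 2 h and 3.06 and 3.36 CPM in pretreated cells at 0 h, against 20.9 and 18.1 CPM in naive cells at 2 h and 0.296 and 0.405 CPM in naive cells at 0 h. Usp18, which removes Isg15 from proteins and damps signalling at the interferon receptor, was higher in every pretreated library at both times. The starting difference was 3.29 ± 0.28 (edgeR adjusted p = 7.4e-10) and the difference at 2 h 3.01 ± 0.07 (edgeR adjusted p = 2.9e-23), so induction was 49.4-fold in pretreated cells and 60.1-fold in naive cells. Its interaction was -0.28 ± 0.34, with a 95% interval of -0.98 to 0.41 (edgeR adjusted p = 0.84). At 2 h Bst2 had 25 and 27.1 CPM in pretreated libraries and 6.41 and 4.91 CPM in naive libraries, and at 0 h it had 10.2 and 11.1 CPM in pretreated libraries and 2.46 and 1.91 CPM in naive libraries. Bst2 encodes tetherin, which holds budding virus at the cell surface, and its interaction of -0.035 ± 0.19 had the narrowest interval of these genes, -0.42 to 0.35, beside a starting difference of 2.20 ± 0.14 (edgeR adjusted p = 4.4e-12).

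The same held for Mx2, Isg15 and Irf7. Pretreated cells held 17 and 18 CPM of Mx2 at 2 h and 0.328 and 0.702 CPM at 0 h, and naive cells held 3.72 and 3.27 CPM at 2 h and 0.0789 and 0.116 CPM at 0 h. Mx2, a dynamin-like antiviral GTPase, rested on 6 counts in the naive 0 h libraries, and its interaction was -0.18 ± 0.50 with an interval of -1.20 to 0.84. Isg15, a ubiquitin-like protein attached to other proteins, had an interaction of 0.11 ± 0.46 (-0.82 to 1.05) and a starting difference of 1.65 ± 0.36 (edgeR adjusted p = 0.0010). Irf7, the transcription factor that drives interferon alpha genes, had 0.38 ± 0.29 (-0.21 to 0.96) and a starting difference of 1.62 ± 0.25 (edgeR adjusted p = 1.5e-05). The nucleotide kinase gene Cmpk2 and the OAS-like gene Oasl2 had interactions of 0.61 ± 0.79 (-1.01 to 2.22) and 0.72 ± 0.63 (-0.57 to 2.02), wide intervals that rested on 5 to 28 counts in each 0 h group. A missed threshold does not show equal folds for any of these genes.

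**Figure D3:**
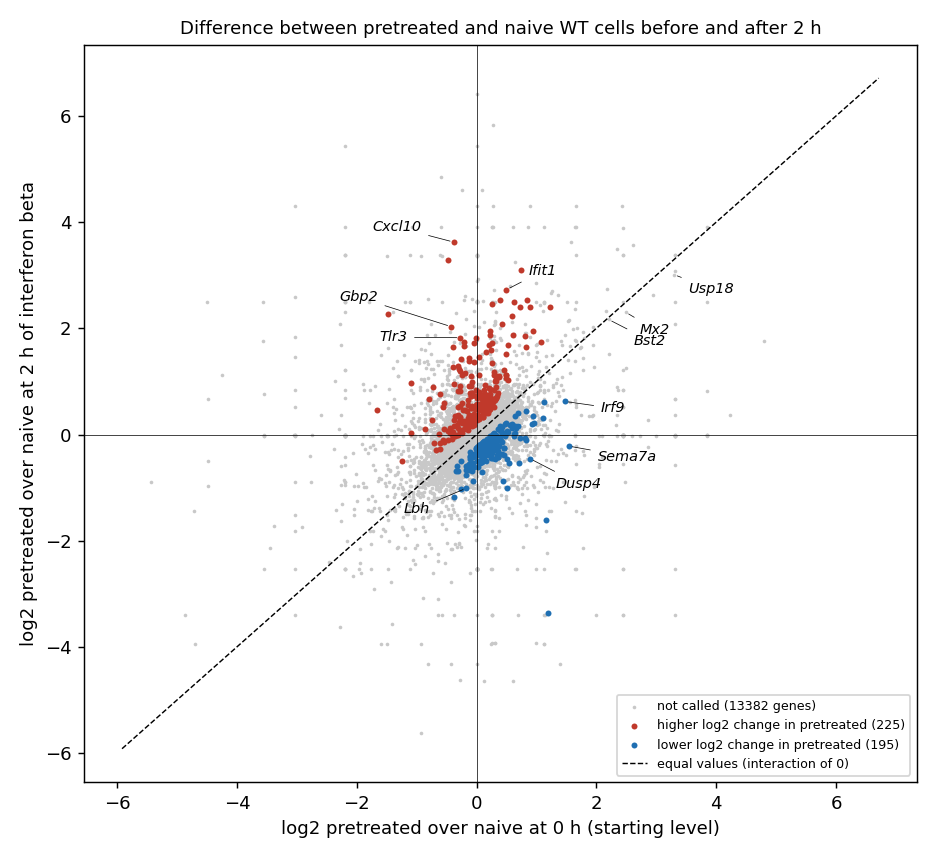
Pretreated over naive log2 difference of each gene at 2 h (vertical axis) against the same difference at 0 h, the starting level (horizontal axis), in WT cells, with positive interactions in red, negative ones in blue, the other genes tested in grey and the line of equal differences dashed. Cxcl10, Gbp2 and Tlr3 lie near 0 on the horizontal axis and high on the vertical one, whereas Usp18, Mx2 and Bst2 lie along the dashed line.

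Immediate early genes, which serum, growth factors and stress switch on within minutes, were the pathway list with the most negative calls. Of 33 genes, all tested, 12 had negative interactions, from -1.35 for Dusp4 to -0.27 for Ier5. The list had a median second response of 1.04 and a median first response of 1.35, and its median interaction was -0.35. The median starting difference was 0.19, and 11 members were called higher and 2 lower in pretreated cells at 0 h, where 12.6% of all genes were called higher and 11.4% lower. With single WT libraries left out, 9 to 12 members had a negative call.

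Dusp4 had 37.3 and 34.1 CPM in pretreated cells at 2 h and 13.4 and 12.2 CPM in pretreated cells at 0 h, against 50.8 and 47 CPM in naive cells at 2 h and 6.67 and 7.47 CPM in naive cells at 0 h. Dusp4, a nuclear phosphatase that switches off MAP kinases, was higher at 0 h and lower at 2 h in both pretreated libraries. It rose 2.79-fold in pretreated cells and 7.1-fold in naive cells, and its interaction was -1.35 ± 0.12 (edgeR adjusted p = 2.5e-09). At 2 h Dusp6 had 121 and 118 CPM in pretreated libraries and 144 and 139 CPM in naive libraries, and at 0 h it had 16.5 and 16.7 CPM in pretreated libraries and 11.8 and 12.7 CPM in naive libraries. Dusp6, a phosphatase of the kinase ERK, crossed in the same way and had an interaction of -0.70 ± 0.085 (edgeR adjusted p = 1.8e-06). Pretreated cells held 62.4 and 55.3 CPM of Nr4a1 at 2 h and 20.2 and 17.4 CPM at 0 h, and naive cells held 77.6 and 75.2 CPM at 2 h and 13.8 and 14.4 CPM at 0 h. Nr4a1, an orphan nuclear receptor, also started higher and ended lower in pretreated cells. Its interaction was -0.80 ± 0.11 (edgeR adjusted p = 7.4e-06). Jund, an AP-1 subunit, had overlapping starting levels, rose 1.37-fold in naive cells and was 0.926 times its starting level in pretreated cells, with an interaction of -0.57 ± 0.095 (edgeR adjusted p = 2.7e-04). Dusp1, Dusp5, Fosl1, Fosl2, Ier3, Ier5, Klf6 and Spry2 made up the rest of the 12.

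Of the 15 largest negative interactions named, 13 belong to no list. Pretreated cells held 40.6 and 34 CPM of Sema7a at 2 h and 2.8 and 2.14 CPM at 0 h, and naive cells held 45.1 and 41.6 CPM at 2 h and 0.907 and 0.695 CPM at 0 h. Sema7a, a membrane-anchored semaphorin, started 2.9 times as high in pretreated cells and at 2 h was slightly lower in both pretreated libraries than in the naive ones. It rose 15.1-fold in pretreated cells and 50.9-fold in naive cells, an interaction of -1.75 ± 0.24 (edgeR adjusted p = 1.4e-05). Sgk1 had 769 and 721 CPM in pretreated cells at 2 h and 231 and 227 CPM in pretreated cells at 0 h, against 832 and 765 CPM in naive cells at 2 h and 129 and 129 CPM in naive cells at 0 h. Sgk1, a kinase induced by serum and glucocorticoids, had a starting difference of 0.83 ± 0.047 (edgeR adjusted p = 1.9e-13) and overlapping levels at 2 h, and its interaction was -0.93 ± 0.064 (edgeR adjusted p = 2.8e-11). Nipal1, a magnesium transporter of the NIPA family, also started higher, by 0.81 ± 0.08 (edgeR adjusted p = 7.9e-09), and overlapped at 2 h, with an interaction of -0.87 ± 0.1 (edgeR adjusted p = 6.7e-07).

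At 2 h Slc30a1 had 8.78 and 9.31 CPM in pretreated libraries and 16.3 and 16.8 CPM in naive libraries, and at 0 h it had 8.37 and 8.47 CPM in pretreated libraries and 5.9 and 6.83 CPM in naive libraries. Slc30a1, a zinc exporter, rose 2.67-fold in naive cells and was 1.07 times its starting level in pretreated cells, which did not pass the test (edgeR adjusted p = 0.55). Its interaction was -1.31 ± 0.15 (edgeR adjusted p = 3.5e-07). Maff had 20.2 and 21 CPM in pretreated cells at 2 h and 6.41 and 5.77 CPM in pretreated cells at 0 h, against 29.1 and 30.7 CPM in naive cells at 2 h and 3.79 and 3.59 CPM in naive cells at 0 h. Maff, a small Maf transcription factor, had an interaction of -1.24 ± 0.16 (edgeR adjusted p = 4.9e-06), higher at 0 h and lower at 2 h in pretreated cells. Pretreated cells held 16.6 and 17.9 CPM of Lbh at 2 h and 11.7 and 11.4 CPM at 0 h, and naive cells held 35.2 and 34 CPM at 2 h and 14.2 and 10.7 CPM at 0 h. Lbh, a transcription cofactor of limb and heart development, had overlapping starting levels and a lower level at 2 h in pretreated cells, with an interaction of -0.84 ± 0.14 (edgeR adjusted p = 1.9e-04).

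Gdf5, a growth factor of the BMP family that shapes joints, rose 1.45-fold in naive cells and was 0.827 times its starting level in pretreated cells, an interaction of -0.81 ± 0.13 (edgeR adjusted p = 1.5e-04). Ptger4, a prostaglandin E2 receptor, had -0.83 ± 0.19 (edgeR adjusted p = 0.0076), or -0.78 with an adjusted p of 0.050, just past the threshold, without WT pretreated 0 h replicate 1. Flrt3, a cell adhesion protein, had -0.97 ± 0.25 (edgeR adjusted p = 0.025) and kept its call in the fits without WT naive 0 h replicate 2, WT naive 2 h replicate 2 or WT pretreated 2 h replicate 2 alone, with adjusted p up to 0.24 in the others. Amh, C330024D21Rik, Srp54c and 9230105E05Rik had negative calls from -2.77 to -0.81 that were lost in 5 or 6 of the 8 fits that left out 1 WT library. Amh rested on 10 to 34 counts per group, and Srp54c has near-identical copies.

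Cholesterol synthesis genes had 6 negative calls among 23 tested of 24, with a median interaction of -0.17. Their starting level was called higher in pretreated cells for 21 of the 23, with a median difference of 0.46, where 12.6% of all genes were called higher. At 2 h Insig1 had 131 and 116 CPM in pretreated libraries and 115 and 113 CPM in naive libraries, and at 0 h it had 123 and 126 CPM in pretreated libraries and 78.3 and 80 CPM in naive libraries. Insig1, which holds back the sterol-sensing activator SREBP, rose 1.44-fold in naive cells and was 0.996 times its starting level in pretreated cells, an interaction of -0.53 ± 0.07 (edgeR adjusted p = 6.7e-06). Hsd17b7, an enzyme gene of the pathway, had -0.47 ± 0.084 (edgeR adjusted p = 5.8e-04). The enzyme genes Msmo1 and Sqle were called at -0.31 and -0.28. With single WT libraries left out the count was 4 to 7.

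Targets of SRF and YAP, the transcription factors of the actin cytoskeleton and of cell stretch, had 4 negative and 2 positive calls among 24 tested, with a median of -0.062. Pretreated cells held 466 and 493 CPM of Ctgf at 2 h and 142 and 132 CPM at 0 h, and naive cells held 640.3 and 619 CPM at 2 h and 111 and 105 CPM at 0 h. Ctgf, a matricellular protein and standard YAP target, started higher and ended lower in pretreated cells, with an interaction of -0.73 ± 0.065 (edgeR adjusted p = 5.3e-09). Cyr61, its family member, and Vcl, the adhesion protein vinculin, had interactions of -0.30 ± 0.063 (edgeR adjusted p = 0.0040) and -0.30 ± 0.06 (adjusted p = 0.0021), and Srf itself was called at -0.31. Filip1l had 0.42 ± 0.093 (edgeR adjusted p = 0.0060), lost without WT naive 0 h replicate 1 (adjusted p = 0.052) or WT naive 2 h replicate 1 (adjusted p = 0.096), and Ankrd1 was called at 0.26. Neither was called when either of these libraries was left out, and the positive count was 0 to 2 with single WT libraries left out.

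Extracellular matrix genes had 3 negative calls and 1 positive call among 35 tested of 37. Timp3 had 1889 and 1927 CPM in pretreated cells at 2 h and 1035 and 1078 CPM in pretreated cells at 0 h, against 2694 and 2680 CPM in naive cells at 2 h and 1026 and 1070 CPM in naive cells at 0 h. Timp3, an inhibitor of matrix-degrading metalloproteinases, had overlapping starting levels and a smaller rise in pretreated cells, with an interaction of -0.51 ± 0.062 (edgeR adjusted p = 2.2e-06). Timp1, its relative, had -0.30 ± 0.065 (edgeR adjusted p = 0.0046), lost without WT naive 0 h replicate 1 (adjusted p = 0.053) or WT naive 2 h replicate 1 (adjusted p = 0.089). The matrix glycoprotein Tnc had -0.26 ± 0.066 (edgeR adjusted p = 0.023) and lost its call in 4 of the 8 fits that left out 1 WT library, 1 of each group, with adjusted p up to 0.19. Adamts1, a matrix-cutting protease, fell less in pretreated cells, to 0.637 of its starting level, against 0.466 in naive cells, an interaction of 0.45 ± 0.084 (edgeR adjusted p = 0.0011). Leaving out WT pretreated 2 h replicate 2 gave 6 negative calls, and leaving out WT naive 2 h replicate 1 gave 1.

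Of 28 ER stress and ATF4 targets, all tested, 4 had positive calls, from 0.33 to 0.55, with a list median of 0.030. These 4 genes fell in both states and fell less in pretreated cells, from lower starting levels. At 2 h Trib3 had 22 and 19.5 CPM in pretreated libraries and 23.6 and 22.6 CPM in naive libraries, and at 0 h it had 41.6 and 45.7 CPM in pretreated libraries and 75.4 and 65.9 CPM in naive libraries. Trib3, a pseudokinase of the stress response, fell to 0.476 of its starting level in pretreated cells and to 0.325 in naive cells, an interaction of 0.55 ± 0.12 (edgeR adjusted p = 0.0056). Nupr1, a stress-induced chromatin protein, had 0.48 ± 0.10 (edgeR adjusted p = 0.0047). Ddit3, the transcription factor CHOP, and Chac1, which breaks down glutathione, had 0.33 ± 0.091 (edgeR adjusted p = 0.038) and 0.40 ± 0.11 (adjusted p = 0.043). The count was 1 without WT naive 0 h replicate 1, none of the 4 was called without WT pretreated 2 h replicate 1, and none was called without both WT libraries low in Rn45s and Lars2.

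Cell cycle genes differed at the start, where 34 of 36 were called higher in pretreated cells with a median of 0.33, beside 12.6% of all genes. They differed little in the interaction, where 2 were called. These were Cenpe, a kinesin of the mitotic spindle, at 0.33 ± 0.063 (edgeR adjusted p = 0.0013) and the replication helicase subunit Mcm6 at 0.23 ± 0.063 (edgeR adjusted p = 0.033), the second lost in 6 of the 8 fits that left out 1 WT library. Of 24 genes of transcription elongation and H3.3 deposition, 2 had positive calls. Daxx had 112 and 106 CPM in pretreated cells at 2 h and 27.4 and 26.4 CPM in pretreated cells at 0 h, against 42 and 42.6 CPM in naive cells at 2 h and 27.9 and 27 CPM in naive cells at 0 h. Daxx, a chaperone that deposits the histone variant H3.3, had an interaction of 1.41 ± 0.078 (edgeR adjusted p = 5.2e-13). Mllt3, a subunit of the super elongation complex, had 0.31 ± 0.076 (edgeR adjusted p = 0.015), lost in 4 of those 8 fits.

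None of the 17 genes of H3K36 methylation, the histone mark that NSD2 writes, was called by edgeR or DESeq2, and 1 had an unadjusted p below 0.05 in edgeR. That gene was Phf6, which encodes a chromatin protein, at 0.17 ± 0.074 (0.02 to 0.32), and the methyltransferase gene Setd2 had -0.12 ± 0.071 (-0.26 to 0.03). Of 20 p53 targets, the kinase gene Plk2 alone was called, at -0.24 ± 0.061 (edgeR adjusted p = 0.021), and it lost the call in 5 of the 8 fits that left out 1 WT library.

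**Figure D4:**
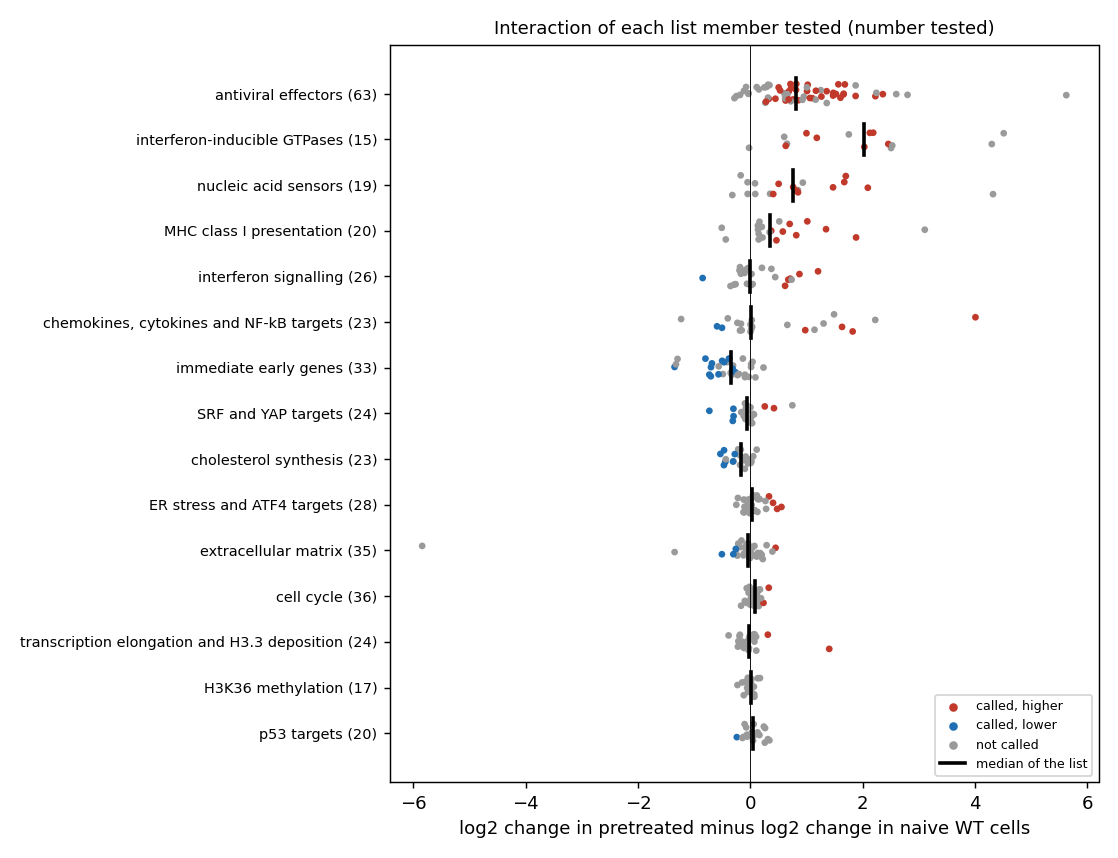
Interaction of every tested member of 15 gene lists (points, log2 change in pretreated minus log2 change in naive WT cells), with positive calls in red, negative calls in blue, members not called in grey and the list median as a black bar. Medians range from 2.03 for interferon-inducible GTPases to -0.35 for immediate early genes, and the red points lie mostly in the 4 uppermost lists. The GTPase median may include members with few or no WT counts.

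Of the 15 largest positive interactions named, 4 belong to no list. Pretreated cells held 4.3 and 4.17 CPM of Plekha4 at 2 h and 1.13 and 0.887 CPM at 0 h, and naive cells held 2.33 and 1.94 CPM at 2 h and 2.37 and 1.62 CPM at 0 h. Plekha4, a phosphoinositide-binding protein, rose 4.19-fold in pretreated cells, while the naive fold was 1, and it started lower in pretreated cells by -1.09 ± 0.23 (edgeR adjusted p = 6.4e-04). Its interaction was 2.06 ± 0.29 (edgeR adjusted p = 1.8e-05). At 2 h Ppm1k had 10.6 and 10.6 CPM in pretreated libraries and 3.04 and 3.33 CPM in naive libraries, and at 0 h it had 5.46 and 5.32 CPM in pretreated libraries and 6.49 and 5.67 CPM in naive libraries. Ppm1k, a mitochondrial phosphatase of branched-chain amino acid breakdown, rose 1.96-fold in pretreated cells and fell to 0.507 of its starting level in naive cells, with an interaction of 1.95 ± 0.17 (edgeR adjusted p = 4.9e-09). Gm4759 and Gm12185 had interactions of 2.11 ± 0.53 (edgeR adjusted p = 0.019) and 1.78 ± 0.40 (adjusted p = 0.0065), lost in 4 and 2 of the 8 fits that left out 1 WT library, with adjusted p up to 0.15 and 0.065.

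A list of genes induced at least 2-fold by a first exposure in KO cells was taken from the contrast of the KO groups. It rests on the single KO naive 2 h library. The filter, scaling and spread came from the fit of all 15 libraries, WT included. Of its 515 genes, 128 (24.85%) had a positive and 37 (7.18%) a negative call in WT cells, and its median interaction was 0.35. Over all genes tested, 1.63% had a positive and 1.41% a negative call. The list was chosen on KO cells of the same study, and its members include many of the lists above. Members could pass the filter through KO libraries alone, and these shares carry no test.

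In the promoter windows of 250 bases, 37 of the 185 genes with a positive call and a RefSeq window (20%) held an ISRE match. In the whole RefSeq table, 936 of 27025 genes (3.46%) did. Of the 225 genes with a positive call 82.2% had a window. Of the 195 genes with a negative call 75.4% had one, below the 80% set as the minimum for a check over a set of genes, so the check is void for them and no share is given.

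The same interaction was computed in the KO cells, whose groups share no library with the WT groups. The spread was estimated over all 15 libraries together. KO naive 2 h has 1 library, assumed to vary like the other groups. In KO 7.7% of genes had a called interaction, positive for 657 genes (4.76%) and negative for 406 (2.94%). Of the 225 WT genes with a positive call, 67 also had one in KO, which was 29.8% of the WT list and 10.2% of the KO list, and 35 had a negative call in KO. Of the 195 WT genes with a negative call, 49 had one in KO (25.1% of the WT list and 12.1% of the KO list) and 3 had a positive one. The test of the difference between the WT and KO interactions called 323 genes (2.34%), with 132 higher in WT (0.956%) and 191 lower (1.38%).

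Antiviral effectors were prominent among the genes that differed. Of 63, 35 had a higher interaction in WT than in KO, and the list's median interaction was 0.81 in WT and -0.68 in KO. Of 15 GTPases tested, 9 had a higher interaction in WT, with medians of 2.03 in WT and -1.55 in KO. The first response had a median log2 change of 1.13 in WT and 3.60 in KO for antiviral effectors and 2.25 in WT and 6.95 in KO for GTPases, and the KO values rest on the single naive 2 h library. The difference between these first responses was not tested. The WT medians of the GTPases may include members with few or no WT counts. Ifit1 had a first response of 4.93 ± 0.17 in WT and 8.58 ± 0.13 in KO, and Gbp2 one of 1.15 ± 0.13 in WT and 6.95 ± 0.11 in KO. The interaction of Ifit1 was 2.23 ± 0.35 in WT and -1.48 ± 0.21 in KO, with a difference of 3.71 ± 0.41 (edgeR adjusted p = 4.7e-07). The interaction of Usp18, not called in WT, was -2.44 ± 0.15 in KO, and the difference was 2.16 ± 0.46 (edgeR adjusted p = 0.0072).

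Of 33 immediate early genes, 4 had a lower interaction in WT than in KO, and the list's median interaction was -0.35 in WT and -0.0013 in KO. Irf9 had -0.85 ± 0.12 in WT and -1.20 ± 0.097 in KO, and the difference of 0.35 ± 0.16 did not pass the test (edgeR adjusted p = 0.29, 95% interval 0.024 to 0.67). Ctgf had opposite signs, at -0.73 ± 0.065 in WT and 0.57 ± 0.072 in KO, with a difference of -1.29 ± 0.097 (edgeR adjusted p = 2.8e-10).

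**Figure D5:**
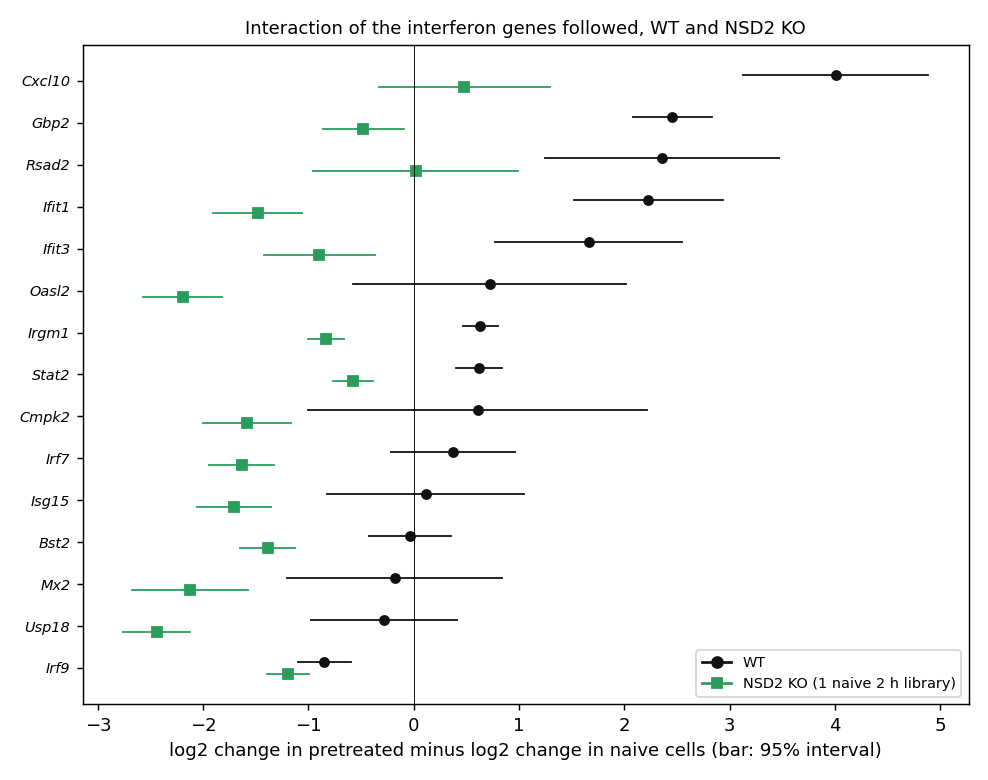
Interaction of 15 interferon genes (horizontal axis, log2 change in pretreated minus log2 change in naive cells, bars for the 95% interval) in WT cells (black circles) and NSD2 KO cells (green squares, with 1 naive 2 h library). WT values lie above the KO values for each gene plotted, by 3.53 for Cxcl10 and 3.71 for Ifit1, and for Irf9 the intervals overlap. The test of the difference itself did not pass for Irf9, Mx2 and Cmpk2, so separate intervals do not stand in for it.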

How the data were processed

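Paired-end libraries of MEF RNA were made with NuGEN's Ovation kit and read on a HiSeq2000 instrument, per the labels' protocols. The authors deposited a table of raw counts for 24015 gene symbols per library. The submitters' processing notes name STAR 2.5.2b, HTSeq, bcl2fastq 2.15 and build mm9. Which annotation and strand setting were used is not given in the sources used here, so overlapping, antisense and near-identical genes are uncertain. HTSeq's 5 summary lines were dropped, and reads outside genes were 35.1% to 39.7% of uniquely aligned reads in WT libraries.

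Counts were scaled by TMM and tested with edgeR 4.0.16 under R 4.3.3 (filterByExpr, minimum count 10, quasi-likelihood test), with 8 groups fitted to 15 libraries and 7 residual degrees of freedom. The filter used all 15 libraries, so genes with few or no WT counts could pass through KO libraries. With the WT libraries alone 12682 genes passed. Benjamini-Hochberg adjustment ran over all 13802 genes tested, and an adjusted p below 0.05 was called. Errors are standard errors of log2 changes, intervals are 95%, and per-library values are CPM. CPM is not scaled for gene length and was not compared between genes. Replicates differed by more than sampling noise in each group of 2 (chi-square over its degrees of freedom was 1.98 to 5.04, Rn45s and Lars2 excluded).

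Genes were named by a rule. It takes per direction the 15 largest interactions among called genes with at least 10 counts in each WT group and responses that do not overlap between states, the members of smallest p in each list (at most 4), 16 interferon genes and Whsc1. The results of 3 genes so chosen are not reported here. Called genes whose responses did not overlap numbered 224 of 225 positive and 195 of 195 negative, where 12.8% and 11.9% of all genes were so separated. The separation used the same libraries as the calls, so it adds no support to them. The comparison, lists and rule were chosen with earlier results of these data known. Results were recomputed with RLE size factors, without a filter, with DESeq2 1.42.0, on WT libraries alone, with a replicate block, without the counts of Rn45s and Lars2, as a gain in CPM, and without each WT library in turn. Leaving out both WT libraries low in Rn45s and Lars2 was an alternative chosen after seeing the data. Simulated counts served to test the scripts. Promoter windows were RefSeq's on GRCm38.p6, matched by symbol, and no coordinate was set against mm9. Figures were drawn with matplotlib 3.10.9.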

Additional observations from a re-analysis of the deposited data

Results flagged for a closer look

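Of the genes named, 38 had an interaction that differed between WT and KO cells by the test of the difference itself (edgeR adjusted p below 0.05), with KO naive 2 h resting on 1 library. Over all genes tested, 2.34% differed. Most named genes were chosen on their WT interaction, which is part of this difference, so their number is not a test of them as a set. All values that follow are WT minus KO interactions on the log2 scale. Among antiviral and other interferon-induced effectors the difference was 4.23 for Rtp4, 3.71 for Ifit1, 2.92 for Oasl2, 2.56 for Ifit3, 2.34 for Rsad2, 2.16 for Usp18, 2.01 for Dtx3l, 1.82 for Isg15, 1.64 for Tor3a, 1.35 for Bst2, 1.31 for Parp10 and 1.20 for Ifit2. Among GTPases it was 4.32 for Iigp1, 3.78 for Gbp7, 2.94 for Gbp2, 2.19 for Ifi47 and 1.46 for Irgm1, and it was 1.69 for Gm12185. Signalling genes had differences of 2.01 for Irf7, 1.20 for Stat2, 0.77 for Irf1 and 0.51 for Irf5. Sensors had 2.85 for Ifih1, 1.53 for Tlr3 and 1.49 for Ifi204. Genes of MHC class I presentation had 1.80 for Nlrc5, 1.18 for Tap1 and 0.55 for Psmb10. Cytokine genes had 3.53 for Cxcl10 and 1.92 for Cd274, the H3.3 chaperone gene Daxx had 0.91, and the stress gene Nupr1 had 0.63.

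The interaction was lower in WT than in KO for 6 of the genes named. The difference was -1.29 for Ctgf, -0.82 for Dusp4, -0.50 for Jund, -0.46 for Dusp6, -0.44 for Tnc and -0.39 for Sgk1. Both interactions were below 0 for Dusp4, Dusp6, Jund and Sgk1, whereas Ctgf and Tnc were below 0 in WT and above 0 in KO.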

How the results depend on the processing

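All 72 called genes that the naming rule chose kept their direction and call with RLE size factors, with no filter, with a replicate block and with Rn45s and Lars2 left out of the counts, and all kept their direction under every alternative to the test. DESeq2 lost 6 of these calls and the WT libraries alone lost 5, and leaving out 1 WT library lost 5 to 17. DESeq2 shared 170 of the 225 positive and 150 of the 195 negative calls. Without both WT libraries low in Rn45s and Lars2, 15 of the 72 calls were lost, starting-level calls numbered 2148, and the interactions of Usp18, Mx2 and Irf7, not called, were 0.099, 0.24 and -0.071. The cause was not tested. On the scale of the gain in CPM, Irf9 alone of the named genes reversed, with 13.2 CPM more in pretreated cells, from its higher starting level.

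With 1 WT library left out, positive interactions numbered 139 to 224 and negative ones 101 to 186, second responses 2131 to 3118, first responses 2737 to 4443, starting-level differences 2076 to 3401, differences at 2 h 2278 to 3517, and genotype differences 211 to 378. The lowest counts came without WT naive 0 h replicate 1 for positive interactions, first responses and starting levels, without WT naive 2 h replicate 1 for negative interactions and differences at 2 h, without WT pretreated 2 h replicate 1 for second responses and without WT naive 2 h replicate 2 for genotype differences. List counts were 25 to 32 for antiviral effectors, 4 to 8 for GTPases and 9 to 12 for immediate early genes. Among genes not called, the interaction ranged over 0, from -0.18 to 0.57 for Isg15, -0.41 to 0.038 for Usp18, -0.63 to 0.46 for Mx2, -0.31 to 0.20 for Bst2, -0.056 to 0.50 for Irf7 and -0.073 to 0.064 for Whsc1. With 1 library left, a group was assumed to vary like the others, and fewer libraries give less power.

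Groups share replicate numbers in the labels. Deviations of same-numbered WT libraries correlated at -0.0095 to 0.039 over 6 pairs of groups, none above 0.1, so the numbers were not taken as pairs. With the replicate number as a block, 271 positive and 256 negative interactions and 595 genotype differences (323 without it) were called. Low counts widen the errors of genes such as Rsad2, Mx2, Cmpk2, Oasl2 and Amh.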
